A study of Mus musculus with 4 samples.

Results

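The genes described here are the 45 genes of the cAMP machinery taken by symbol from a list: 10 adenylyl cyclases, 15 cAMP phosphodiesterases, 2 catalytic and 4 regulatory subunits of protein kinase A (PKA), 3 PKA inhibitors, 2 Epac exchange factors, 4 CREB and ATF1 factors, 3 CREB coactivators and 2 salt-inducible kinases. All 45 were found among the 23235 gene symbols of the RNA-seq files. The libraries came from HG165, an androgenetic mouse haESC line of C57BL/6 origin that carries only a paternal genome. Its cells received either the solvent DMSO (2 samples) or RDF (2 samples), a mixture of Repsox (which blocks TGF-β signalling), DMH1 (which blocks BMP signalling) and Forskolin (which activates adenylyl cyclase). The culture medium common to both groups held serum and LIF. The doses, the length of treatment and any sorting of haploid cells are not stated for these samples. RDF was given only as the whole mixture, so the part of Forskolin cannot be told apart from that of the other chemicals. HG165 is a single line, and nothing says that the replicates came from separate cultures, so p-values measure only the spread between these samples.

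As background, adenylyl cyclases make cAMP from ATP when a stimulatory G protein, or Forskolin, activates them, and phosphodiesterases break it down. cAMP frees the catalytic subunits of PKA from their regulatory subunits, and it also activates Epac, an exchange factor for the small GTPase Rap. PKA phosphorylates CREB, and the Crtc coactivators enter the nucleus when salt-inducible kinases no longer hold them in the cytoplasm.

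The authors deposited FPKM, that is fragments scaled to transcript length and library size, so that levels can be compared between genes. The summed FPKM lay between 718064 and 764461 per sample. FPKM do not give the depth directly. From the steps of whole fragments among low values it was estimated at 10580000 and 12260000 fragments for DMSO replicates 1 and 2 and at 13400000 and 12160000 for RDF replicates 1 and 2, for counting precision only. All 10 pluripotent stem cell markers were detected in each sample, the lowest at 25.8 FPKM. They summed to 7889.3 and 7824.3 FPKM in DMSO and to 5138 and 4666.5 FPKM in RDF. Their median was 91.7 and 93.9 FPKM in DMSO and 108.6 and 109.3 FPKM in RDF. Of these 10 markers, 4 were higher (Zfp42, Sall4, Klf4 and Sox2) and 4 lower (Dppa5a, Utf1, Tdgf1 and Pou5f1) with RDF by the test used below. The labels describe culture on feeder cells, whereas the methods of the study say that most experiments were done without them and do not list sequencing as an exception. The 10 fibroblast markers summed to 37.6 and 36.6 FPKM in DMSO and to 23.0 and 24.99 FPKM in RDF. Fap was listed at 0 in DMSO replicate 1 and RDF replicate 1. Of the 6 fibroblast markers tested, Col1a1, Col1a2, Thy1 and Postn fell, the last having passed the filter only through its DMSO values, and Dcn rose from 1.74 and 1.40 to 6.56 and 7.51 FPKM. The median of the 10 overlapped between the groups, at 1.67 and 1.41 FPKM in DMSO and 1.26 and 1.58 FPKM in RDF. The 8 primitive endoderm markers summed to 7.70 and 6.28 FPKM in DMSO and to 10.5 and 11.1 FPKM in RDF. The 8 trophoblast markers summed to 92.0 and 86.9 against 122 and 121 FPKM, the 7 mesoderm markers to 11.1 and 9.66 against 12.6 and 13.7 FPKM, and the 6 neural markers found in the files to 61.0 and 54.6 against 32.8 and 31.0 FPKM. The neural sum was mostly Tubb3 (54.5 and 47.6 against 26.7 and 24.1 FPKM), while the median of the 6 was 0.583 and 0.644 FPKM in DMSO and 0.839 and 0.893 FPKM in RDF. The mesoderm markers did not move as one, with Hand1 at 3.88 and 3.43 against 6.12 and 6.98 FPKM, T at 1.63 and 1.27 against 0.333 and 0.401 FPKM, and medians that overlapped. By the same test 1 of 2 primitive endoderm, 3 of 6 trophoblast and 1 of 2 mesoderm markers were higher, and 1 of 3 neural markers was lower. Gata3, of the 3 trophoblast markers, passed the filter only through its RDF values. Elf5, a trophoblast marker, was at 0 in DMSO replicate 2. In the trophoblast sum Tfap2c stood at 27.2 and 25.1 against 48.3 and 50.7 FPKM. Krt8 overlapped, at 37.5 and 35.1 against 36.3 and 32.9 FPKM. The median of the 8 was 5.67 and 5.39 FPKM in DMSO and 7.54 and 6.55 FPKM in RDF. The part of these marker differences in the results below was not tested.

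Of the 45 genes, 22 averaged 1 FPKM or more and were tested, and 23 were below that level. With no filter, limma called 0 of the 23, where it called 942 higher and 606 lower of all 18012 genes. Those 18012 include the genes at or above 1 FPKM, and the share called below that level was not computed. Of the 23, 4 had an unadjusted p under 0.05, and the matching share of all genes below 1 FPKM was not computed either. The test was limma's on log2(FPKM + 1), with p-values adjusted by the Benjamini-Hochberg method over all 11733 genes at or above 1 FPKM. The log2 fold change is the mean log2(FPKM + 1) in RDF minus that in DMSO, a scale that understates the change of low genes. Pde8a, Pde7a, Rapgef3 and Prkar2a rose, and Pde1b fell. The other 17 did not pass an adjusted p of 0.05. This makes 18.2% of the 22 higher and 4.55% lower, against 13.3% of all genes tested higher and 8.28% lower, so the count is near the background in both directions. Both RDF values lay above both DMSO values in 12 of the 22 (37.1% of all genes tested) and below them in 4 (28.5% of all genes tested). The median log2 fold change was 0.13 in the 22 genes and 0.026 in all genes tested. The call of Pde8a and that of Pde1b held without any 1 of the samples. The number of genes higher was 2 without DMSO replicate 1, 3 without DMSO replicate 2, and 1 without either RDF sample. With 2 samples against 2, an exact two-sided permutation test has 0.333 as its smallest possible p and was left out.

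**Figure D1:**
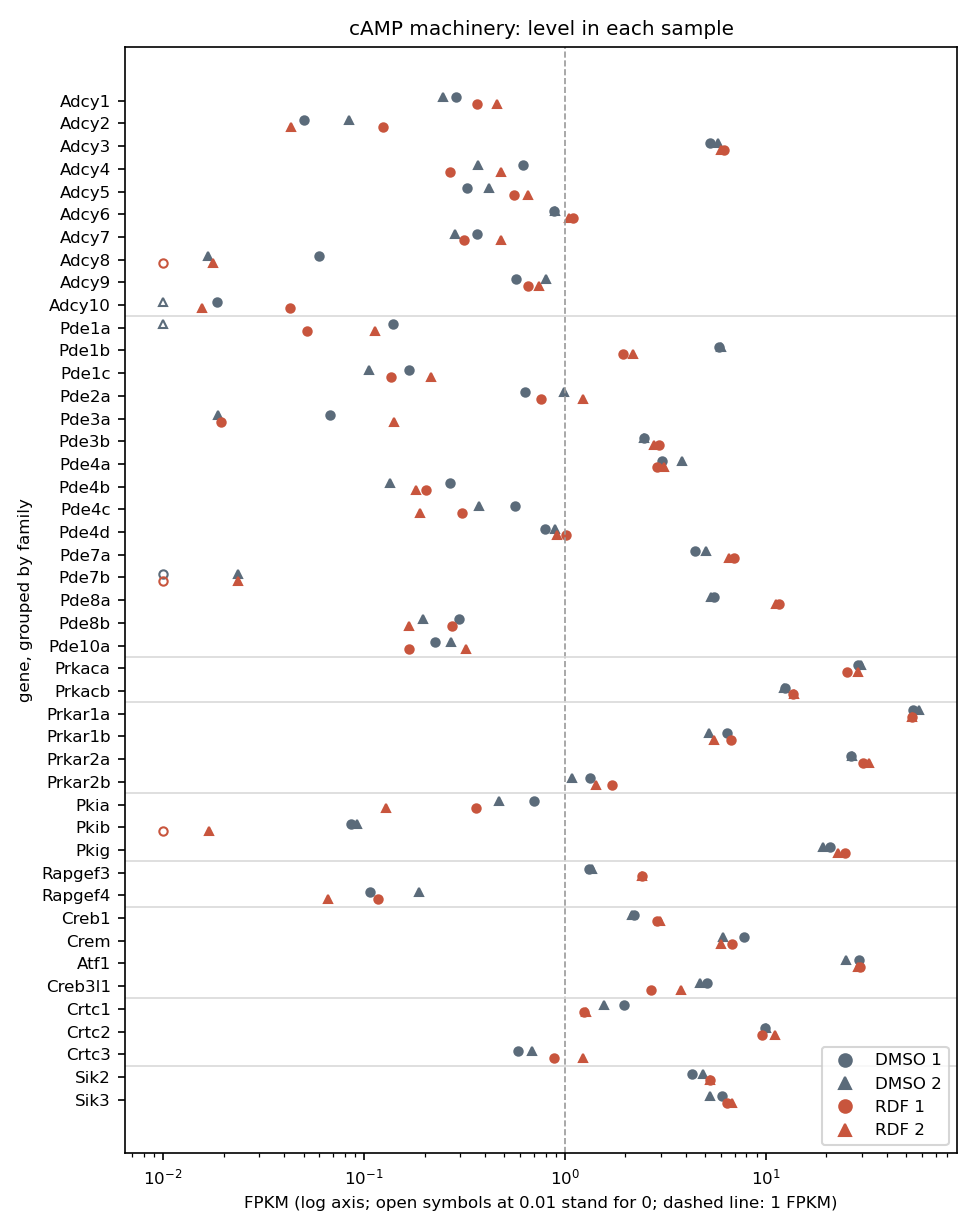
Level of each of the 45 genes in FPKM on a log axis, with DMSO in grey and RDF in red, replicate 1 as circles and replicate 2 as triangles. Open symbols at the left edge stand for 0, the dashed line marks 1 FPKM, and grey lines separate the families. Prkar1a, Atf1, Prkaca and Prkar2a lie at the right, and most cyclases lie to the left of the dashed line.

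**Figure D2:**
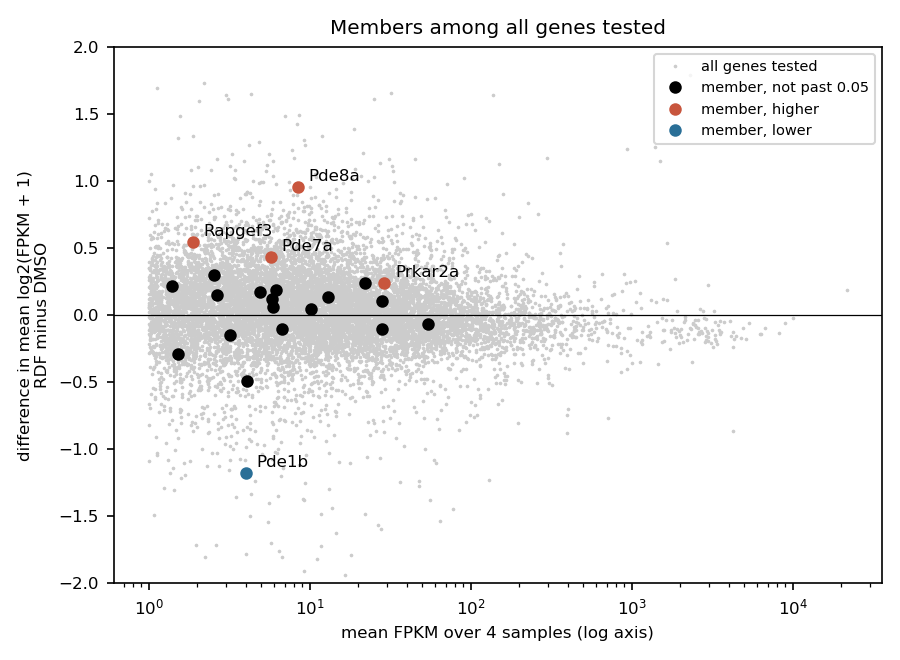
Difference in mean log2(FPKM + 1), RDF minus DMSO, against the mean FPKM on a log axis. Grey points are all 11733 genes tested, of which 30 lie beyond the drawn range. Large points are the 22 cAMP genes tested, red where higher, blue where lower and black where the adjusted p was not under 0.05. Pde8a at 0.95 and Pde1b at -1.18 lie farthest from 0 among the 22.

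The promoters of the genes that changed are shown because CREB binds a known DNA element, the cAMP response element TGACGTCA, whose core is TGACG. The sequences and the starts are those of RefSeq (GRCm38.p6). For Pde8a, Rapgef3 and Prkar1a that start differs from the gene start in the positions given below, which come from another annotation. RefSeq promoters were found for 36 of the 45 genes, with Pde7a among those without an entry. Each window runs from 250 bases before the start to 10 bases after it, 5′ to 3′ on the strand of the gene, and matched exactly 1 place in NCBIM37 (mm9). Capitals mark TGACG on either strand (CGTCA on the other) and the whole TGACGTCA. Pde8a (chr7:88357901-88358160, plus strand), Rapgef3 (chr15:97598088-97598347, minus strand) and Prkar2a (chr9:108594224-108594483, plus strand) rose. Pde1b (chr15:103333215-103333474, plus strand, the most upstream of 3 promoters) fell. Prkar1a (chr11:109512013-109512272, plus strand) did not pass the test and is shown because it was the only one of the 36 genes with the whole element. It has 6 promoters, and the one shown was chosen because it holds the element.
Pde8a: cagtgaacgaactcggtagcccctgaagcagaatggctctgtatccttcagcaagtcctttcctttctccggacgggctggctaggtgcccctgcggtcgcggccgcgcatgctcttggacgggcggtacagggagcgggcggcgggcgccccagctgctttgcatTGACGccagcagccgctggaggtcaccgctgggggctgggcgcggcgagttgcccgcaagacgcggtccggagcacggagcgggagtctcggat
Rapgef3: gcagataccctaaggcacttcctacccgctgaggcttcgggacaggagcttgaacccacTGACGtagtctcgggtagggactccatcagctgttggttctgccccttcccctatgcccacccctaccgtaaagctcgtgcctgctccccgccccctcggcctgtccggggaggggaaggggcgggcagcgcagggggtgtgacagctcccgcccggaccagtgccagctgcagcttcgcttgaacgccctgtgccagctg
Prkar2a: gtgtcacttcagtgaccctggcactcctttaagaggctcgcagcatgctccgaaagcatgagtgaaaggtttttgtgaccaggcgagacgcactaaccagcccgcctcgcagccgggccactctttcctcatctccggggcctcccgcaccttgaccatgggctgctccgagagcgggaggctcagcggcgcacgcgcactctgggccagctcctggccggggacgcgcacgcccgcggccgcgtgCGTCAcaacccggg
Pde1b: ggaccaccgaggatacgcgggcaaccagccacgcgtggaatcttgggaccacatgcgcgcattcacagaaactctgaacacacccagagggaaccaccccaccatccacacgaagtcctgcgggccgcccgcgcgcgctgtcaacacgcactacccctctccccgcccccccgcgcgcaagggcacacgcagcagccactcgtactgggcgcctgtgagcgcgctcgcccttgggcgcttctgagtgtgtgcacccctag
Prkar1a: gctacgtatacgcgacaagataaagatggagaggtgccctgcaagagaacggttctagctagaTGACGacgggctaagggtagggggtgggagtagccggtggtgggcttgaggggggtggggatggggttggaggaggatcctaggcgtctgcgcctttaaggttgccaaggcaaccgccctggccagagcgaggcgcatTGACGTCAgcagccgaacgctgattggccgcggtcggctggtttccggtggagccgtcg
The core begins 84 bases before the start in Pde8a, 191 before it in Rapgef3 and 4 before it in Prkar2a, where it runs across the start. In Prkar1a the whole element begins 49 bases before the start, and a further core begins 187 bases before it. None of the 3 Pde1b promoters holds the core. In windows of 250 bases before to 50 after the start, 20.8% of all 32851 RefSeq promoters hold the core and 1.8% the whole element. Among the promoters of these genes, 20 of 76 (26.3%) hold the core and 2 (2.6%) the whole element. By gene, 18 of 36 (50%) have it in at least 1 promoter, against 23.0% of all 27025 genes, but these 36 genes have more promoters each. A match of letters is a description of the sequence and says nothing of binding.

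The largest changes among the 22 genes tested were in phosphodiesterases. Pde8a encodes a cAMP-specific phosphodiesterase of high affinity for cAMP and lies on chromosome 7 from 88358482 to 88479419. Its level was 5.51 and 5.33 FPKM with DMSO and 11.7 and 11.2 FPKM with RDF, about 210 and 235 against 563 and 490 fragments. Both RDF samples were well above both DMSO samples and the replicates lay close together. The ratio of the mean FPKM was 2.11, the log2 fold change was 0.95, its standard error (SE) was 0.075 and the adjusted p was 0.00159. Leaving out each sample in turn gave values between 0.93 and 0.98.

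Pde1b went the other way. It encodes a phosphodiesterase that calcium and calmodulin activate and that breaks down both cAMP and cGMP, and it lies on chromosome 15 from 103333465 to 103360483. Its level was 5.87 and 5.98 FPKM in DMSO and 1.95 and 2.17 FPKM in RDF. The groups did not overlap, and the mean in DMSO was 2.87 times that in RDF. The log2 fold change was -1.18 (SE 0.094, adjusted p = 0.00159), and between -1.13 and -1.23 with each sample left out. In these bulk samples fewer cells that express a gene and less RNA per cell cannot be told apart. Some fibroblast and neural markers fell too while others of those lists did not, as given above, and their part in the fall of Pde1b was not tested.

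Pde7a, which encodes another cAMP-specific phosphodiesterase, lies on chromosome 3 from 19123108 to 19211322. It rose from 4.42 and 5.05 FPKM in DMSO to 6.92 and 6.56 FPKM in RDF. The log2 fold change was 0.44 (SE 0.093, adjusted p = 0.0242). The call did not hold without DMSO replicate 1 (adjusted p = 0.0737), RDF replicate 1 (0.121) or RDF replicate 2 (0.0977), and the adjusted p was 0.0643 without the filter on low values. Pde3b, whose product cGMP inhibits, had 2.47 and 2.48 FPKM in DMSO and 2.93 and 2.77 FPKM in RDF. Its log2 fold change was 0.15 (95% interval -0.086 to 0.38, adjusted p = 0.305). Pde4a, the most abundant gene of the rolipram-sensitive PDE4 family here, had 3.03 and 3.84 FPKM in DMSO and 2.86 and 3.10 FPKM in RDF, and the groups overlapped. Its log2 fold change was -0.15 (95% interval -0.44 to 0.14, adjusted p = 0.402).

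The sum over the 15 phosphodiesterase genes was 24.5 and 25.7 FPKM in DMSO and 29.3 FPKM in both RDF samples. Within that sum, Pde8a held 22.5% and 20.8% in DMSO and 39.9% and 38.2% in RDF. Pde1b held 24.0% and 23.3% in DMSO and 6.66% and 7.42% in RDF. In DMSO Pde1b stood just above Pde8a, whereas in RDF Pde8a stood above all others and Pde1b below the other 4 genes tested. The ratio of Pde8a to Pde1b was 0.938 and 0.892 in DMSO and 5.99 and 5.15 in RDF. The 8 genes of the cAMP-specific Pde4, Pde7 and Pde8 families summed to 14.9 and 15.8 FPKM in DMSO and to 23.2 and 22.3 FPKM in RDF. The 7 genes of families that also accept cGMP (Pde1, Pde2, Pde3 and Pde10) summed to 9.58 and 9.84 FPKM in DMSO and to 6.01 and 6.96 FPKM in RDF. These sums follow from the genes above and have no test of their own.

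**Figure D3:**
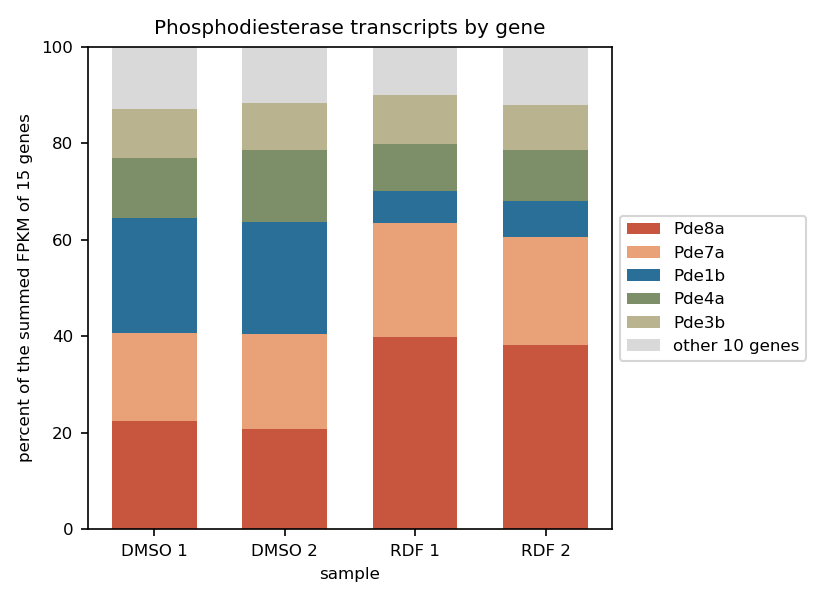
Share of each gene in the summed FPKM of the 15 phosphodiesterase genes, in percent, for each of the 4 samples. Pde8a takes 22.5% and 20.8% of the bar in DMSO and 39.9% and 38.2% in RDF, while Pde1b narrows from 24.0% and 23.3% to 6.66% and 7.42%.

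The other 10 phosphodiesterases were below 1 FPKM on average. Pde2a, whose product cGMP stimulates, had 0.635 and 0.985 FPKM in DMSO and 0.763 and 1.23 FPKM in RDF, and Pde4d had 0.797 and 0.891 against 1.01 and 0.918 FPKM. Pde4c had 0.564 and 0.375 FPKM in DMSO and 0.309 and 0.190 FPKM in RDF, about 19.4 and 15.0 against 13.4 and 7.53 fragments. Pde4b, a gene known to respond to cAMP in many cells, had 0.266 and 0.134 FPKM in DMSO and 0.203 and 0.180 FPKM in RDF. That is about 11.6 and 6.76 fragments in DMSO and 11.2 and 9.01 in RDF, too few to show a small difference. Pde8b, the paralog of Pde8a, stood at 0.297 and 0.196 against 0.275 and 0.167 FPKM, so Pde8a was the main Pde8 transcript in each sample. Pde10a and Pde1c lay between 0.105 and 0.321 FPKM. Pde1a, Pde3a and Pde7b were at or below 0.142 FPKM, with at most 6.90 fragments in a sample.

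Among the cyclases, the enzymes that Forskolin acts on, only Adcy3 was above the filter. It lies on chromosome 12 from 4133103 to 4213525. Its level was 5.27 and 5.78 FPKM in DMSO and 6.15 and 5.996 FPKM in RDF, with both RDF values above both DMSO values. The log2 fold change was 0.12 (95% interval -0.091 to 0.33, adjusted p = 0.357). In the annotation 1380 of its exonic bases overlap Cenpo on the other strand, and whether the counting used strand is not stated. Adcy3 held between 60.4% and 64.98% of the summed FPKM of the 10 cyclases in each sample. That sum was 8.45 and 8.89 FPKM in DMSO and 9.57 and 9.94 FPKM in RDF.

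Adcy6 came next, just below the filter, with 0.879 and 0.892 FPKM in DMSO and 1.09 and 1.04 FPKM in RDF. It is a cyclase that calcium inhibits, as is Adcy5, which had 0.327 and 0.420 FPKM in DMSO and 0.558 and 0.652 FPKM in RDF, about 23.6 and 35.1 against 50.9 and 53.9 fragments. Adcy1, which calcium and calmodulin stimulate, had 0.286 and 0.246 FPKM in DMSO and 0.364 and 0.460 FPKM in RDF. In these 3 genes both RDF values were above both DMSO values. This was so in 37.1% of all genes tested, which average 1 FPKM or more. The share among genes below that level was not computed. With no filter, limma gave adjusted p of 0.352 for Adcy6, 0.138 for Adcy5 and 0.202 for Adcy1. Adcy9, the cyclase that Forskolin activates poorly, had 0.569 and 0.804 FPKM in DMSO and 0.655 and 0.746 FPKM in RDF, and the groups overlapped. Adcy4 and Adcy7 lay between 0.267 and 0.622 FPKM, with overlap as well. Adcy2 stayed at or below 0.124 FPKM, and Adcy8 and the soluble cyclase Adcy10, which Forskolin does not activate, were at or below 0.0597 FPKM, with at most 3.07 fragments in a sample.

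The catalytic subunits of PKA were among the more abundant genes. Prkaca had 28.6 and 29.6 FPKM in DMSO and 25.2 and 28.8 FPKM in RDF, and the groups overlapped (log2 fold change -0.11, 95% interval -0.30 to 0.085, adjusted p = 0.364). Prkacb had 12.5 and 12.3 FPKM in DMSO and 13.6 and 13.8 FPKM in RDF (log2 fold change 0.13, 95% interval -0.025 to 0.29, adjusted p = 0.189). The ratio of Prkaca to Prkacb was 2.28 and 2.41 in DMSO and 1.85 and 2.09 in RDF.

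The regulatory subunits are of type I, which are mostly free in the cytoplasm, and type II, which anchoring proteins hold at membranes. Prkar1a, a type I subunit on chromosome 11 from 109510719 to 109530970, had the highest level of all 45 genes, with 53.7 and 57.9 FPKM in DMSO and 53.3 and 53.4 FPKM in RDF. Both RDF values lay just below both DMSO values. Its log2 fold change was -0.063 (95% interval -0.21 to 0.081, adjusted p = 0.472). Prkar2a, the main type II subunit, lies on chromosome 9 from 108594474 to 108651843. It had 26.4 and 26.8 FPKM in DMSO and 30.5 and 32.7 FPKM in RDF, so that both RDF samples were above both DMSO samples. The ratio of the means was 1.19, with a log2 fold change of 0.24 (SE 0.062, adjusted p = 0.0402). That call was close to the threshold. Its adjusted p was between 0.0878 and 0.181 with each of the 4 samples left out, 0.0558 with median-ratio scaling, 0.0569 with quantile normalization, 0.0752 without the mean-variance trend and 0.0682 without the filter. Prkar1b had 6.39 and 5.19 against 6.68 and 5.48 FPKM (adjusted p = 0.754). In the annotation 341 of its exonic bases overlap the transcript Gm15672 on the same strand. Prkar2b had 1.34 and 1.08 against 1.72 and 1.42 FPKM (adjusted p = 0.255).

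Type I subunits exceeded type II subunits in summed FPKM by a ratio of 2.17 and 2.26 in DMSO and 1.86 and 1.72 in RDF. Regulatory subunits exceeded catalytic subunits by 2.14 and 2.17 in DMSO and by 2.38 and 2.18 in RDF. Neither ratio was tested. Among the PKA inhibitors, small proteins that block the catalytic subunit, Pkig was the main transcript, with 20.8 and 19.2 FPKM in DMSO and 24.9 and 22.7 FPKM in RDF. Its log2 fold change was 0.24 (SE 0.075, 95% interval 0.060 to 0.42, adjusted p = 0.0669). Pkia had 0.701 and 0.468 FPKM in DMSO and 0.360 and 0.128 FPKM in RDF, about 25.8 and 20 against 16.8 and 5.44 fragments. Pkib had 0.0858 and 0.0918 FPKM in DMSO and 0 and 0.0168 FPKM in RDF, about 4.88 and 6.06 against 0 and 1.10 fragments. Both RDF values of Pkia and of Pkib lay below both DMSO values. This was so in 28.5% of all genes tested, which average 1 FPKM or more. The share among genes below that level was not computed. With no filter, limma gave adjusted p of 0.163 for Pkia and 0.162 for Pkib.

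Rapgef3 encodes Epac1 and lies on chromosome 15 from 97575384 to 97598403. It had 1.32 and 1.36 FPKM in DMSO and 2.41 and 2.42 FPKM in RDF, about 55.9 and 66.6 against 129 and 118 fragments. The groups were far apart beside the replicate spread. The ratio of the means was 1.80, and the log2 fold change was 0.55 (SE 0.10, adjusted p = 0.0164). The call did not hold without RDF replicate 1 (adjusted p = 0.0891) or RDF replicate 2 (0.0974), although the log2 fold change was 0.55 and 0.54. Exons of Rapgef3 overlap the transcripts Gm16256 and Gm16257 on the other strand over 351 and 236 bases. Its relative Rapgef4, which encodes Epac2, was at 0.108 and 0.189 FPKM in DMSO and at 0.117 and 0.0663 FPKM in RDF.

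**Figure D4:**
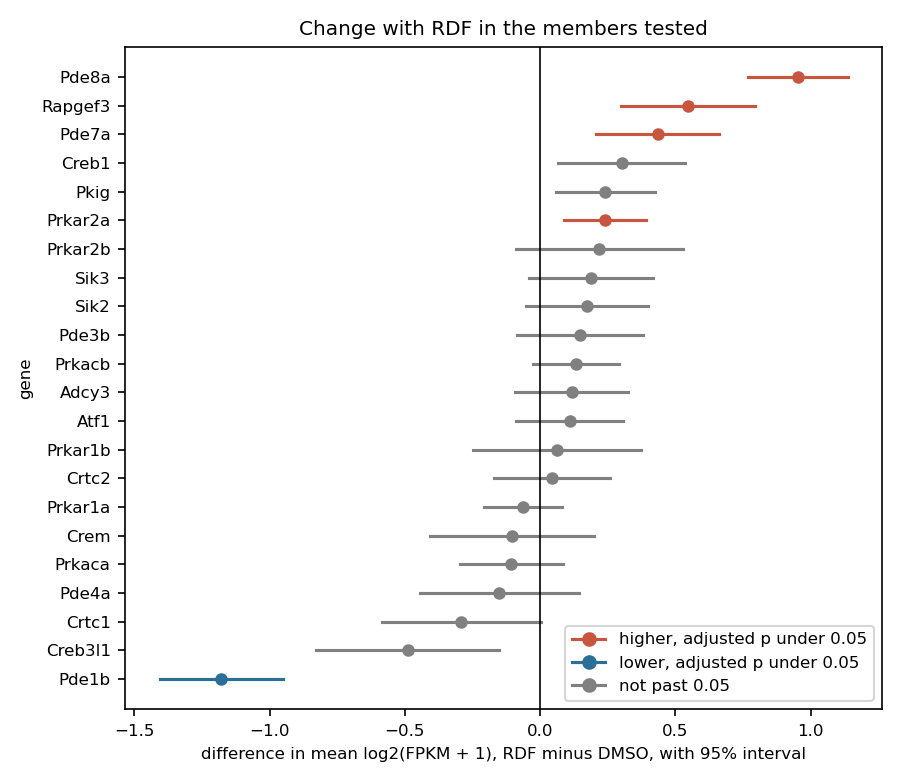
Difference in mean log2(FPKM + 1), RDF minus DMSO, for the 22 genes tested, as a point with limma's 95% interval. Red marks genes higher and blue genes lower at an adjusted p under 0.05, and grey marks the rest. The intervals of Pde8a and Pde1b lie farthest from 0, on opposite sides, and 15 of the 22 points are above 0, as are 6382 of all 11733 genes tested.

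At the level of the transcription factors, Atf1 was the most abundant, with 28.9 and 24.9 FPKM in DMSO and 29.3 and 28.8 FPKM in RDF (log2 fold change 0.11, adjusted p = 0.366). Creb1 was far lower, with 2.21 and 2.14 FPKM in DMSO and 2.87 and 2.96 FPKM in RDF. The groups of Creb1 did not overlap, and its log2 fold change was 0.30 (SE 0.096, 95% interval 0.068 to 0.54, adjusted p = 0.0722, or 0.0375 without the mean-variance trend). Crem, which also encodes the cAMP-inducible repressor ICER, had 7.81 and 6.14 FPKM in DMSO and 6.80 and 5.97 FPKM in RDF, and the groups overlapped (log2 fold change -0.11, adjusted p = 0.574). The gene-level value does not separate ICER from the other Crem transcripts. Creb3l1, a membrane-bound factor that proteolysis releases, had 5.07 and 4.70 FPKM in DMSO and 2.69 and 3.77 FPKM in RDF. Its log2 fold change was -0.49 (SE 0.14, 95% interval -0.83 to -0.15, adjusted p = 0.0537), and the adjusted p was 0.0468 with median-ratio scaling and 0.0375 with quantile normalization.

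Crtc2 was the main coactivator, with 9.85 and 10.01 FPKM in DMSO and 9.53 and 11.04 FPKM in RDF (log2 fold change 0.043, 95% interval -0.17 to 0.26, adjusted p = 0.752). Crtc1 had 1.97 and 1.57 FPKM in DMSO and 1.25 and 1.27 FPKM in RDF (log2 fold change -0.29, 95% interval -0.59 to 0.0044, adjusted p = 0.136). Crtc3 did not reach the filter and had 0.582 and 0.688 FPKM in DMSO and 0.885 and 1.24 FPKM in RDF. The kinases that hold Crtc proteins in the cytoplasm, Sik2 and Sik3, had 4.28 and 4.86 FPKM and 6.07 and 5.29 FPKM in DMSO, against 5.27 and 5.27 FPKM and 6.38 and 6.81 FPKM in RDF. Both RDF values were above both DMSO values in Sik2 and in Sik3, as in 37.1% of all genes tested. Their log2 fold changes were 0.17 and 0.19, with adjusted p of 0.226 and 0.201. In the annotation 578 of the exonic bases of Sik2 overlap Ppp2r1b on the other strand.

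The rest of the pathway was read from 6 lists of 90 genes, of which 89 were in the files and 49 were tested. Of these 49, 15 rose and 1 fell, against 13.3% of all genes tested higher and 8.28% lower. Gnal, 1 of the 15, passed the filter only through its RDF values and so had to differ. The number that rose was 9 without RDF replicate 1 and 6 without RDF replicate 2. Among genes known to respond to CREB, 7 of 11 rose, led by Egr1, Nr4a1 and Dusp1, and none fell (0 at an unadjusted p under 0.05 in limma). Of the 11, Nr4a2 and Rgs2 passed the filter only through their RDF values, so they could not count as falls. Neither was called. Without RDF replicate 1 and without RDF replicate 2, only 10 genes of this list were tested. The log2 fold changes were then 2.12 and 1.93 for Egr1, 0.91 and 0.80 for Nr4a1, and 0.80 and 0.71 for Dusp1. Many genes of this list are also known to respond to ERK signalling and serum. Egr1 rose from 19.0 and 18.5 FPKM to 74.4 and 84.8 FPKM (log2 fold change 2.03, adjusted p = 0.000174). Nr4a1 rose from 22.9 and 24.4 to 41.9 and 45.1 FPKM (log2 fold change 0.86, adjusted p = 0.00154), and Dusp1, a phosphatase of MAP kinases, from 196 in both DMSO samples to 320 and 341 FPKM (log2 fold change 0.75, adjusted p = 0.00141). Sik1, the inducible relative of Sik2 and Sik3, was among the 7.

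Of the 9 receptors and G proteins tested, 1 was called higher and 1 lower. Gnas, the stimulatory G protein, had 266 and 239 FPKM in DMSO and 238 and 237 FPKM in RDF (log2 fold change -0.087, adjusted p = 0.385). Gnai2, an inhibitory G protein, fell from 179 FPKM in both DMSO samples to 123 and 128 FPKM (log2 fold change -0.51, adjusted p = 0.00301). Gnal, a stimulatory G protein known from olfactory neurons, had 0.576 and 0.448 FPKM in DMSO and 1.69 and 1.48 FPKM in RDF (log2 fold change 0.77, adjusted p = 0.0101 in limma). It passed the filter only through its RDF values, so its call is no support for a rise. Without either RDF sample it averaged below 1 FPKM and was not tested. Among the 10 anchoring proteins tested, Akap1, Akap8 and Akap12 rose, by 0.42, 0.31 and 0.22 on the log2 scale, but none of the 3 was called without either RDF sample. Akap8 was also not called without DMSO replicate 2, nor Akap12 without either DMSO sample. Of 8 other CREB family factors and acetyltransferases, the coactivator Ep300 rose from 5.29 and 5.01 to 9.84 and 11.1 FPKM (log2 fold change 0.90, adjusted p = 0.00286), as did Crebzf (log2 fold change 0.26, adjusted p = 0.0332). The call of Crebzf did not hold with any 1 sample left out. Of 9 other effectors and transporters, the cyclic nucleotide-gated channel gene Hcn2 rose by 0.64 and Rapgef2 by 0.39 on the log2 scale. Without RDF replicate 1 or RDF replicate 2 the call of Hcn2 did not hold, and that of Rapgef2 did not hold with any 1 sample left out. Of the other genes named as phosphodiesterases or their subunits, 2 were tested, Pde6d and Pde9a. Neither passed the test in limma, and Pde9a had an unadjusted p of 0.0219.

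**Figure D5:**
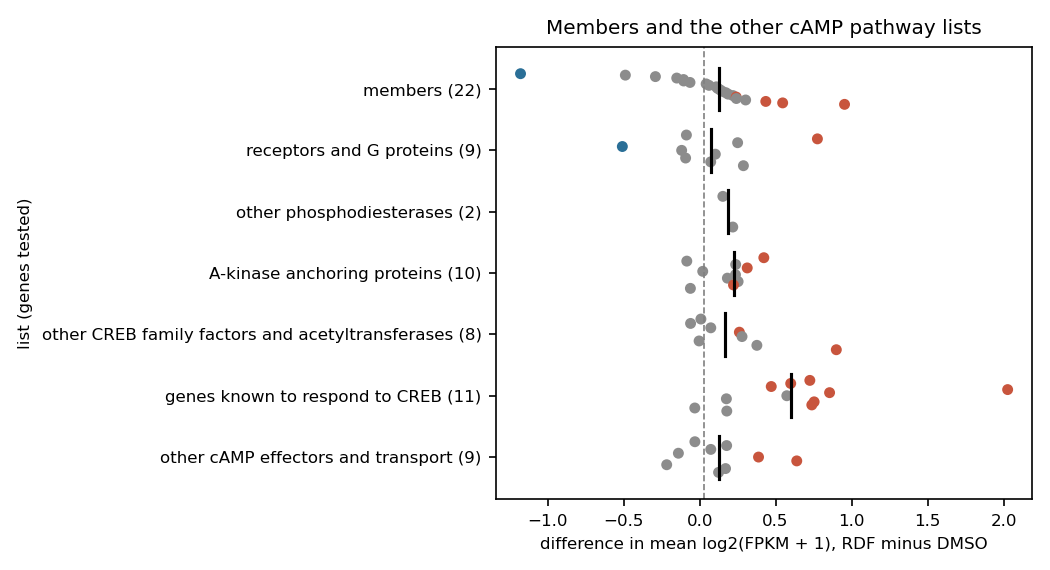
Difference in mean log2(FPKM + 1), RDF minus DMSO, of each gene tested among the 22 cAMP genes and in the 6 other pathway lists, with the number tested in brackets. Red and blue mark genes higher and lower at an adjusted p under 0.05, black bars are medians, and the dashed line is the median of all genes tested. The median was 0.60 for the genes known to respond to CREB and 0.13 for the 22 cAMP genes.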

How the data were processed

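Stranded mRNA libraries from 2 DMSO-treated and 2 RDF-treated samples of HG165 haESCs were sequenced on an Illumina instrument. The authors deposited FPKM for each sample, and the paper's methods name Tophat, Cufflinks and the UCSC mm9 annotation. The submitters' processing notes list TopHat2 2.0.14, Bowtie2 2.1.0 and Cufflinks 2.2.1, with no parameters. Reads were not analysed here.

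FPKM were taken as log2(FPKM + 1) with no further scaling, since a count test cannot be run on FPKM. Genes that averaged 1 FPKM or more were fitted with limma 3.58.1 in R 4.3.3 (lmFit, then eBayes with its trend option, 1 term for RDF, no block), with Benjamini-Hochberg adjustment over 11733 genes and a threshold of 0.05. The fit was tested on simulated data. Standard errors and 95% intervals are limma's.

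The depth was estimated from genes with 1 annotated transcript of at least 1500 bases, as the number at which FPKM times length (less 200 bases) came closest to whole fragments. Between 44.0% and 49.5% of these low values came within 0.1 of whole, against 20% if spread evenly. The depth and the 200 bases were chosen for this closeness on the same values. A share above 20% is therefore partly built in and is no check of the depth. Fragments of a gene use its longest transcript and are approximate. They cover counting error only. Positions come from the NCBIM37 annotation. Promoters come from RefSeq.

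The cAMP genes and the other lists were chosen with earlier results of these data known. Genes were given in full where they passed the test, had a log2 fold change of at least 0.5 in size or the highest level of their family, and the 3 largest called changes of each other list were named. Alternatives were another pseudocount, other filters, other scalings, no trend, a replicate block and each sample left out. The groups have 2 samples, so single samples could not be tested as outliers.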

Additional observations from a re-analysis of the deposited data

How the results depend on the processing

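Across 11 other settings, 209 of 233 values of the 22 genes kept their direction and their side of the threshold, 14 lost a call, 4 gained one and 6 changed sign. Of 139 values of the named pathway genes, 114 kept both, 25 lost the call and 0 changed sign. Among the 22 genes, only the 5 called with the main setting could lose a call, and every lost call was in Prkar2a, Pde7a or Rapgef3. The number of cAMP genes higher was 4. It was 2 without the filter on low values and between 1 and 3 with a sample left out, where a lone sample is assumed to vary like the other group. Over all genes, limma then called 393 higher without RDF replicate 1 and 311 without RDF replicate 2, against 1561 with all samples, 1188 without DMSO replicate 1 and 1154 without DMSO replicate 2, and the cause was not tested. The number lower was 1. It was 2 with median-ratio scaling and 2 with quantile normalization, where Creb3l1 was added. It was 0 with a mean of at least 5 FPKM, where limma tested 13 of these genes and Pde1b was not among them, and 0 were lower at an unadjusted p under 0.05. The pathway genes higher numbered 15, and between 6 and 12 with a sample left out. The sign changes were near 0. Quantile normalization gave log2 fold changes of -0.012 for Prkar1b and -0.012 for Crtc2. With a sample left out the values lay between -0.066 and 0.19 for Prkar1b, between -0.26 and 0.047 for Crem and between -0.054 and 0.14 for Crtc2. The median of all genes moved from 0.026 to -0.0037 with median-ratio scaling. With a replicate block limma called 5 cAMP genes higher, Pkig being added at an adjusted p of 0.0384, and 1 lower, 15 pathway genes higher and 1 lower. The labels do not say that the numbers pair the samples, and the deviations of same-numbered samples correlated with a Pearson r of 0.134 across genes, which are not independent.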

Other observations

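The order of the phosphodiesterase levels differed between the conditions. In DMSO the 5 genes tested stood in the order Pde1b, Pde8a, Pde7a, Pde4a and Pde3b by mean FPKM, with means of 5.93, 5.42, 4.73, 3.43 and 2.47. In RDF the order was Pde8a, Pde7a, Pde4a, Pde3b and Pde1b, with means of 11.4, 6.74, 2.98, 2.85 and 2.06. Pde4a and Pde3b overlapped in RDF, and in DMSO no neighbours in that order overlapped. In the other families the gene with the highest level was the same in DMSO and in RDF.

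Of the 22 genes tested, both RDF values lay above both DMSO values in 12, against 37.1% of all genes tested, and 8 of these did not pass the adjusted p. They were Adcy3, Pde3b, Prkacb, Prkar2b, Pkig, Creb1, Sik2 and Sik3. Their log2 fold changes lay between 0.12 and 0.30.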
